A study of Mus musculus with 2 samples.

Results

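Interferon-stimulated genes are genes whose transcription rises when a cell senses interferon. The 8 described here, Isg15, Ifit1, Ifit2, Ifit3, Rsad2, Irf7, Oasl2 and Usp18, were taken by their symbols from the 26124 genes of the count matrices, and all 8 were found. They were followed by cell class and by library in macrophage-enriched mouse spleen, with the red cell precursors set apart. No measured value entered this choice, although the set was proposed with earlier results of the same data known.

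The study placed 1 droplet scRNA-seq library of spleen cells from a sickle cell disease (SCD) mouse beside 1 from a control, after enrichment with magnetic beads coated with an antibody to the macrophage protein F4/80. The SCD mouse was of the Berkeley model, homozygous for the deletions Hbatm1Paz and Hbbtm1Tow and for the transgene Tg(HBA-HBBs)41Paz, which carries human globin genes including sickle β-globin. The control, labelled wild-type, was also homozygous for Hbatm1Paz but heterozygous for Hbbtm1Tow and hemizygous for the transgene, and does not sickle. Both therefore lacked mouse α-globin and carried the transgene, both were untreated and 12 to 16 weeks old, and each library came from 1 mouse, so that neither spread between animals nor a test between the conditions could be had.

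Interferons bind receptors on the cell surface, and the receptor kinases then phosphorylate STAT proteins, which enter the nucleus with IRF9 and bind interferon-stimulated response elements, short DNA motifs with repeated GAAA. The products of the 8 genes act at several steps. Rsad2 encodes viperin, a radical SAM enzyme that makes a chain-terminating nucleotide, and Ifit1, Ifit2 and Ifit3 encode proteins that bind viral RNA or each other. Oasl2 belongs to the oligoadenylate synthetase family, Isg15 is a ubiquitin-like modifier, Usp18 removes that modifier and dampens receptor signalling, and Irf7 is a transcription factor that amplifies interferon production. The red pulp of the mouse spleen holds macrophages that clear old red cells, and is also a site where red cells are made.

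The genes lie apart in the genome, except for the Ifit genes. In GRCm38, Ifit2 (chr19:34550694-34576419), Ifit3 (chr19:34583531-34588731) and Ifit1 (chr19:34640871-34650009) follow each other on the forward strand. Rsad2 (chr12:26442746-26456452) is on the reverse strand, and Cmpk2 (chr12:26469204-26479837), which encodes a mitochondrial nucleotide kinase, starts 12751 bases away on the opposite strand. Isg15 is at chr4:156199424-156200818, Irf7 at chr7:141262706-141266481, Oasl2 at chr5:114896936-114912234 and Usp18 at chr6:121245906-121270917. Ifit3 has a near-identical neighbour, Ifit3b (chr19:34607970-34613401), and Ifit1 and Oasl2 have paralogs, so some reads of these genes may not have been counted for them.

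The promoters of 4 members are shown because Rsad2 and Isg15 had a cell pattern of their own, and Ifit1 and Ifit3 also hold the response element letters, which Ifit2, Irf7 and Oasl2 lack in this window. Each sequence runs 5′ to 3′ on the gene's strand from 160 to 41 bases before the annotated start, taken from RefSeq in GRCm38.p6, and capitals mark matches to GAAANNGAAA on either strand. The windows are chr12:26456493-26456612 for Rsad2 and chr4:156200859-156200978 for Isg15, both on the reverse strand, and chr19:34640729-34640848 for Ifit1 and chr19:34583369-34583488 for Ifit3, both on the forward strand.
Rsad2: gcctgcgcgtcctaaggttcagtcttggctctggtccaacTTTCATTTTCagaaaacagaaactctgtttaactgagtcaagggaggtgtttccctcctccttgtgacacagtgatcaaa
Isg15: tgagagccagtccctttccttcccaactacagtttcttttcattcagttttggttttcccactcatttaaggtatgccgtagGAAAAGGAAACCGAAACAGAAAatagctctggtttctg
Ifit1: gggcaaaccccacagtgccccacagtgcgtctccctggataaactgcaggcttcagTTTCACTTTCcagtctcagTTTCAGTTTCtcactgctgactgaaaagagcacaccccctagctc
Ifit3: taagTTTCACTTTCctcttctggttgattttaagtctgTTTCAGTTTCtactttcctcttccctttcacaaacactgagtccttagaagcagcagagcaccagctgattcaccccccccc

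Within the 300 bases from 250 before to 50 after the start, Isg15 held 3 overlapping matches, Ifit1 and Ifit3 held 2 each and Rsad2 held 1, at 120 bases before its start. The promoters of Ifit2, Irf7, Oasl2 and Cmpk2 held none of these letters. Of all 32851 promoters of the table, 3.44% held a match. A promoter was found for 7 of the 8 members, without Usp18. The letters TGANTCA, the core shared by AP-1 and the erythroid factor NF-E2, occurred once in Rsad2, at 87 bases before the start, once in Ifit3, and in 7.81% of all promoters, and that motif was searched for after the Rsad2 sequence had been read. The letters AGATAA, which resemble those that GATA factors bind, occurred just after the start of Irf7 and of Oasl2, in none of the other members' promoters, and in 11.2% of all promoters.

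The wild-type-labelled library held 145953464 UMIs (counted RNA molecules) in 24144 barcodes and the SCD-labelled library 73986356 in 15442, of which 19418 and 12279 cells were kept, with medians of 4116 and 4571 UMIs. The 8 genes made up 146008 and 29181 of the UMIs of the kept cells, and 65 kept barcodes occurred in both libraries. The β-globin genes went against both labels. Hbb-bs stood in erythroid-like cells at 129 CPM (UMIs scaled to the same total in each sum of cells) in the wild-type-labelled library, which should hold an intact copy, and at 58839 CPM in the SCD-labelled library, which should hold none. Each direction between the libraries below is therefore that of the deposited labels.

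Clustering, from which all interferon pathway genes were left out, gave 25 clusters, and 4 of them were named erythroid-like from erythroid markers (5207 cells in the wild-type-labelled library and 428 in the SCD-labelled library). Clusters were named "with erythroid RNA" where their erythroid markers were at 4 times the level of the main B lymphocyte cluster or more, which took in 4443 and 1479 cells. The remaining 9768 and 10372 cells are called the clusters without erythroid RNA, although they held some below that limit. They include RPM-like cells (red pulp macrophage-like, 4745 and 1628), Ly6c-low monocyte-like cells (432 and 1067), Ly6c-high monocyte-like cells (1046 and 794), cDC2-like cells (type 2 conventional dendritic cell-like, 1072 and 2491), mature dendritic cell (DC)-like cells (496 and 676) and the main B cluster (555 and 1735). These numbers follow the bead enrichment as well as the spleen. The RPM-like class came from different clusters in the libraries, mostly clusters 9 and 1 in the one labelled wild-type and cluster 11 in the one labelled SCD, and Iigp1, an interferon-γ-induced GTPase, was among the 10 leading genes of cluster 11. Of 2 values, the first is that of the wild-type-labelled library and the second that of the SCD-labelled one, given as CPM of UMIs summed over cells, with 95% Poisson intervals that cover counting error only.

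Rsad2 and Isg15 stood far higher in erythroid-like cells than in the classes without erythroid RNA in both libraries. By class, the other 6 genes were highest mostly in monocytes and DCs. The erythroid-like class pools clusters that differ, as given below. In erythroid-like cells Rsad2 was at 1871 (1857 to 1886) and 1698 (1648 to 1748) CPM, against 122 and 39.9 CPM in the clusters without erythroid RNA. Isg15 was at 449 (442 to 457) and 322 (301 to 345) CPM in erythroid-like cells, against 32.9 and 23.3 CPM. Erythroid-like cells held 56.9% and 31.1% of all Rsad2 UMIs of a library, and 65.7% and 31.7% of those of Isg15. In the SCD-labelled library other cells held more. Clusters with erythroid RNA had 7783 of the 14398 Rsad2 UMIs there, and clusters without it 1252 of the 2685 Isg15 UMIs.

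Most classes named with erythroid RNA came next for both genes, and for Rsad2 one of them was higher. That was cluster 18, left without a class name and led by Tent5c and Apol11b, among others, with 2152 (2109 to 2195) CPM over 1077 cells of the wild-type-labelled library and with only 25 cells in the other. Rsad2 was at 1791 and 1189.7 CPM in cDC2-like and 1352 and 1099 CPM in RPM-like cells with erythroid RNA. Over both libraries, 47.9% of these cDC2-like cells were marked as doublets by Scrublet, under the limits given below. For the RPM-like ones the share was 6.44% in cluster 5 and 1.72% in cluster 19. The part of doublets in these levels was not tested. Among classes not named with erythroid RNA, mature DC-like cells were highest, at 347 and 118 CPM. Their summed erythroid markers were also above those of the main B cluster, at 1369 and 368 CPM against 515 and 90.5 CPM. RPM-like cells, both monocyte-like classes, cDC2-like cells and the main B cluster lay between 90.7 and 124 CPM and between 19.2 and 51.2 CPM. The few T/NK lymphocyte-like cells (62 and 93), with 31 and 10 Rsad2 UMIs, were left out of these ranges.

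The other members were ordered differently. Irf7 was highest in Ly6c-high monocyte-like cells, at 50.7 (45.6 to 56.2) and 136 (126 to 147) CPM. By class Oasl2 was highest there too, at 78.9 (72.5 to 85.8) and 155 (144 to 167) CPM. In the wild-type-labelled library the Ly6c-high monocyte-like cells with erythroid RNA came next with overlapping intervals. They were at 48.6 (42.0 to 55.9) CPM for Irf7 and 64.4 (56.8 to 72.8) CPM for Oasl2. Over both libraries, 44.99% of the cells of that class were marked as doublets, whose part in these levels was not tested. In the SCD-labelled library the next class lay below the interval for both genes. Usp18 was highest in mature DC-like cells, at 101 (88.5 to 116) and 140.0 (127 to 154) CPM, and second in cDC2-like cells, at 49.1 and 55.1 CPM, with no overlap.

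For Ifit2 and Ifit3 the leading classes could not be separated. Ifit2 was at 19.3 (16.2 to 22.8) and 29.1 (24.5 to 34.3) CPM in Ly6c-high monocyte-like cells and at 19.4 (15.5 to 23.9) and 28.2 (25.4 to 31.3) CPM in cDC2-like cells. Ifit3 reached 14.5 (11.8 to 17.6) and 26.6 (22.3 to 31.6) CPM in Ly6c-high monocyte-like cells, next to 13.5 (11.8 to 15.4) and 20.2 (17.1 to 23.6) CPM in RPM-like cells. Ifit1 stood at 23.3 and 37.3 CPM in Ly6c-high monocyte-like cells, 20.03 and 33.6 CPM in cDC2-like cells and 25.01 and 21.5 CPM in mature DC-like cells. Its highest values in the wild-type-labelled library were in classes with erythroid RNA. Ly6c-high monocyte-like cells with erythroid RNA had 34.5 (29.0 to 40.8) CPM and cDC2-like cells with erythroid RNA 29.6 (25.2 to 34.5) CPM. The first lay above the interval of 19.9 to 27.1 CPM for Ly6c-high monocyte-like cells. Over both libraries, doublets made up 44.99% and 47.9% of these classes with erythroid RNA, and their part in these values was not tested. In erythroid-like cells Ifit1 was at 22.1 (20.6 to 23.8) and 40.6 (33.3 to 49.1) CPM, with intervals that overlap those of Ly6c-high monocyte-like cells, whereas Ifit2 there was at 6.75 and 7.21 CPM and Ifit3 at 6.60 and 3.79 CPM, among the low values of each.

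**Figure D1:**
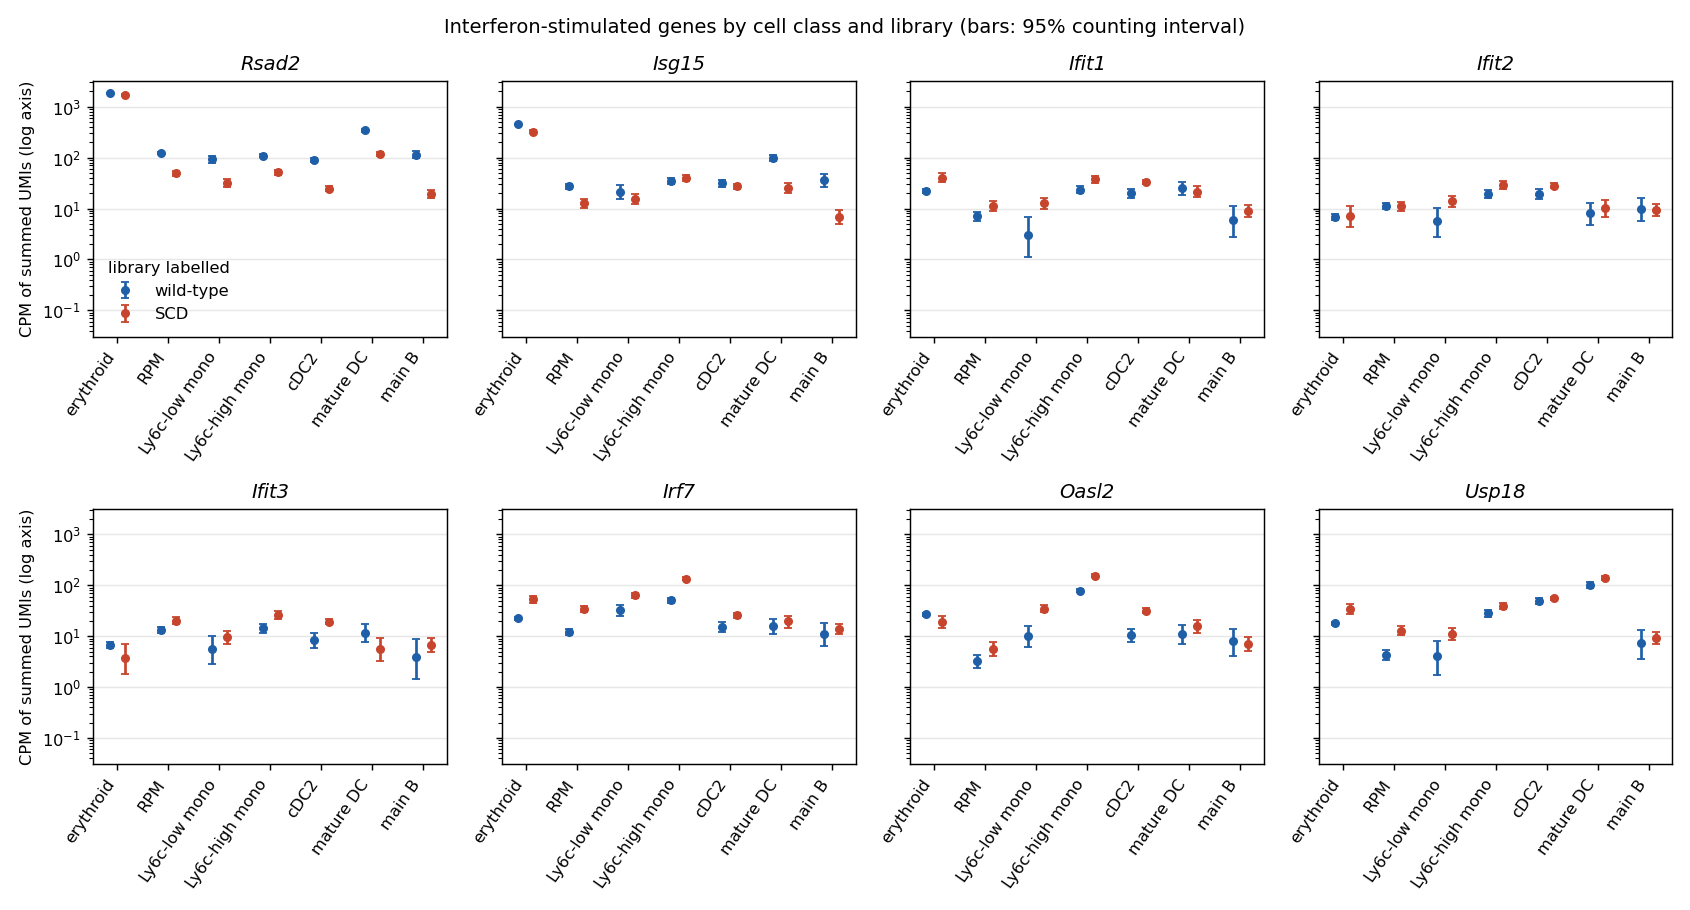
Level of each of the 8 genes (CPM, log axis) in 7 cell classes of the wild-type-labelled library and the SCD-labelled library; points are sums over the cells of a class and bars 95% Poisson intervals. Of the classes drawn, Rsad2 and Isg15 peak in erythroid-like cells, at 1871 and 1698 CPM and 449 and 322 CPM, Irf7 and Oasl2 in Ly6c-high monocyte-like cells, and Usp18 in mature DC-like cells.

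The ratios that follow leave out the clusters with erythroid RNA, which held 42556 of 111473 and 7783 of 14398 Rsad2 UMIs. The size of the Rsad2 ratio depends on leaving them out, and ratios that include them were not computed. The mix of classes in the clusters without erythroid RNA also differed between the libraries. So did their summed erythroid markers, at 541 and 108 CPM, and their Rsad2, at 122 and 39.9 CPM. Rsad2 in erythroid-like cells differed little, at 1871 and 1698 CPM. The part of these differences in the ratios was not tested. Set against these clusters of the same library, erythroid-like cells had 15.3 and 42.6 times as much Rsad2, a log2 ratio of 3.94 (3.90 to 3.98) and 5.41 (5.34 to 5.49). For Isg15 it was 13.6 and 13.8 times, or 3.77 (3.69 to 3.85) and 3.79 (3.66 to 3.92). These 2 of the 8 members were higher by 2-fold or more in each library, where 11.8% and 11.2% of the 11936 and 11753 genes with at least 100 UMIs were. In the wild-type-labelled library no member was lower by 2-fold or more, against 22.0% of all genes, and in the SCD-labelled library Ifit2, Ifit3 and Oasl2 were, against 38.6%. From per-cell CPM, which lets each cell count alike, Ifit1 was past 2-fold higher too, at 1.49 and 1.40, and Oasl2 in the wild-type-labelled library at 1.60, which made 4 and 3 of the 8 higher. With the main B cluster subtracted Ifit1 was at 1.27 and 1.19. Lower values crossed the limit as well. Ifit2 did so in the wild-type-labelled library under 3 of the alternatives, at -1.001 to -1.13, and Ifit3 under 2, at -1.02 and -1.50. In the SCD-labelled library Ifit3 went to -0.87 with all variable genes in the clustering and Oasl2 to -0.52 from per-cell CPM. The median log2 ratio was 0.12 and -0.03 over the 8 members and -0.45 and -0.72 over all genes.

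The 6 members besides Rsad2 and Isg15 lay between -0.96 and 0.81 in the wild-type-labelled library and between -2.12 and 0.82 in the SCD-labelled library. Ifit1 was higher in erythroid-like cells in both, at 0.81 (0.65 to 0.97) and 0.82 (0.53 to 1.11). Ifit2 was lower in both, at -0.96 (-1.19 to -0.74) and -1.40 (-2.14 to -0.75), and so was Ifit3, at -0.79 (-1.02 to -0.56) and -2.12 (-3.19 to -1.24), the last from 10 UMIs. Irf7 was level, at -0.07 (-0.20 to 0.07) and 0.03 (-0.22 to 0.28). Usp18 was at -0.33 (-0.47 to -0.18) and -0.08 (-0.40 to 0.22). Oasl2 differed in sign, at 0.31 (0.17 to 0.44) and -1.30 (-1.73 to -0.90), though its first value was -0.046 at a clustering resolution of 0.5. From per-cell CPM Irf7 and Usp18 in the wild-type-labelled library turned to 0.29 and 0.15. The size of the Rsad2 ratio depended on the grouping of cells and on the scale. In the wild-type-labelled library it was 3.20 at a clustering resolution of 2 and 7.72 after the level of the main B cluster was subtracted, and the mean of per-cell CPM put Rsad2 at 3572 and 3045 CPM in erythroid-like cells. After the subtraction the Rsad2 ratio was lower in the SCD-labelled library than in the wild-type-labelled one.

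Rsad2 varied widely within the erythroid-like cells. The 4 clusters are taken here in the order of their cycling genes, from most to least. Cluster 6 was led by Hemgn and Klf1, genes of red cell precursors, with Rrm2 and Cdc6, genes of DNA synthesis. Cluster 3 was led by Hemgn and Car1, cluster 13 by Xpo7 and Tmcc2, and cluster 16 by Slfn14 and Dyrk3. Cycling genes summed to 6885 CPM in cluster 6, 3045 CPM in cluster 3, 504 CPM in cluster 13 and 349 CPM in cluster 16, and late erythroid genes to 10670.4, 6091, 17505 and 13403 CPM. Both libraries had cells in the first 3, and cluster 16 held 29 cells of the SCD-labelled library, for which no value is given.

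Rsad2 was at 738 (725 to 752) and 534 (494 to 575) CPM in cluster 6 and 596 (581 to 611) and 752 (693 to 814) CPM in cluster 3. It reached 4789 (4736 to 4842) and 5604 (5402 to 5811) CPM in cluster 13, and 6372 (6271 to 6474) CPM in cluster 16 of the wild-type-labelled library. The intervals of the 2 clusters rich in cycling genes lay far below those of the others in each library. Rsad2 and Isg15 were themselves among the 10 leading genes of cluster 13, although they had not been used to form it.

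Isg15 was likewise higher in cluster 13, but not further so in cluster 16. It was at 342 and 239 CPM in cluster 6, 219 and 264 CPM in cluster 3 and 1009 (985 to 1034) and 591 (526 to 661) CPM in cluster 13. In cluster 16 it was at 563 (534 to 594) CPM in the wild-type-labelled library, below cluster 13 there.

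Ifit1 and Oasl2 were also higher in the clusters low in cycling genes. Ifit1 was at 7.76 (6.41 to 9.31) and 20.5 (13.4 to 30.03) CPM in cluster 6 and at 59.5 (53.8 to 65.8) and 108 (81.7 to 140.4) CPM in cluster 13. Oasl2 was at 6.49 (5.26 to 7.92) and 3.94 (1.28 to 9.20) CPM in cluster 6, 62.0 (56.1 to 68.3) and 54.0 (35.9 to 78.1) CPM in cluster 13 and 115 (102 to 129.9) CPM in cluster 16 of the wild-type-labelled library. In cluster 13 Ifit1 thus stood above Ly6c-high monocyte-like cells, which had 23.3 and 37.3 CPM. Oasl2 stood above those cells, at 78.9 and 155 CPM, in cluster 16 of the wild-type-labelled library but not in cluster 13. Irf7 differed less, at 17.5 and 41.8 CPM in cluster 6 and 31.5 and 61.8 CPM in cluster 13, and Usp18 was at 15.1 and 29.95 CPM and at 23.0 and 29.0 CPM. Ifit3 was at 2.54 (1.80 to 3.49) and 1.58 (0.191 to 5.69) CPM in cluster 6. In the wild-type-labelled library it was higher in the other clusters, at 9.03 (7.27 to 11.1) CPM in cluster 3, 10.4 (8.10 to 13.2) CPM in cluster 13 and 11.3 (7.44 to 16.4) CPM in cluster 16. The intervals of these overlap, so cluster 3 was not separated from the clusters low in cycling genes. Ifit2 stayed between 5.37 and 8.36 CPM in the 4 clusters of the wild-type-labelled library.

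Other values moved with these clusters. Scrublet's automatic threshold marked no cell of the wild-type-labelled library, so the highest-scoring 10% (2046 cells) were taken as doublets, and the shares below rest mainly on that choice. Doublets made up 45.5% of the cells of cluster 3, 9.41% of cluster 6, 4.62% of cluster 13 and 0.588% of cluster 16. The red pulp macrophage markers summed to 5198 CPM in cluster 6, 13396 CPM in cluster 3, 14530.0 CPM in cluster 13 and 14749 CPM in cluster 16, against 2426 CPM in the main B cluster. RPM-like cells themselves, in which those markers summed to 24841 CPM in cluster 9 and 23918 CPM in cluster 11, had Rsad2 at 124 and 49.4 CPM, below each of the 4 erythroid-like clusters. The part of doublets and of macrophage RNA in the differences between these clusters was not tested.

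**Figure D2:**
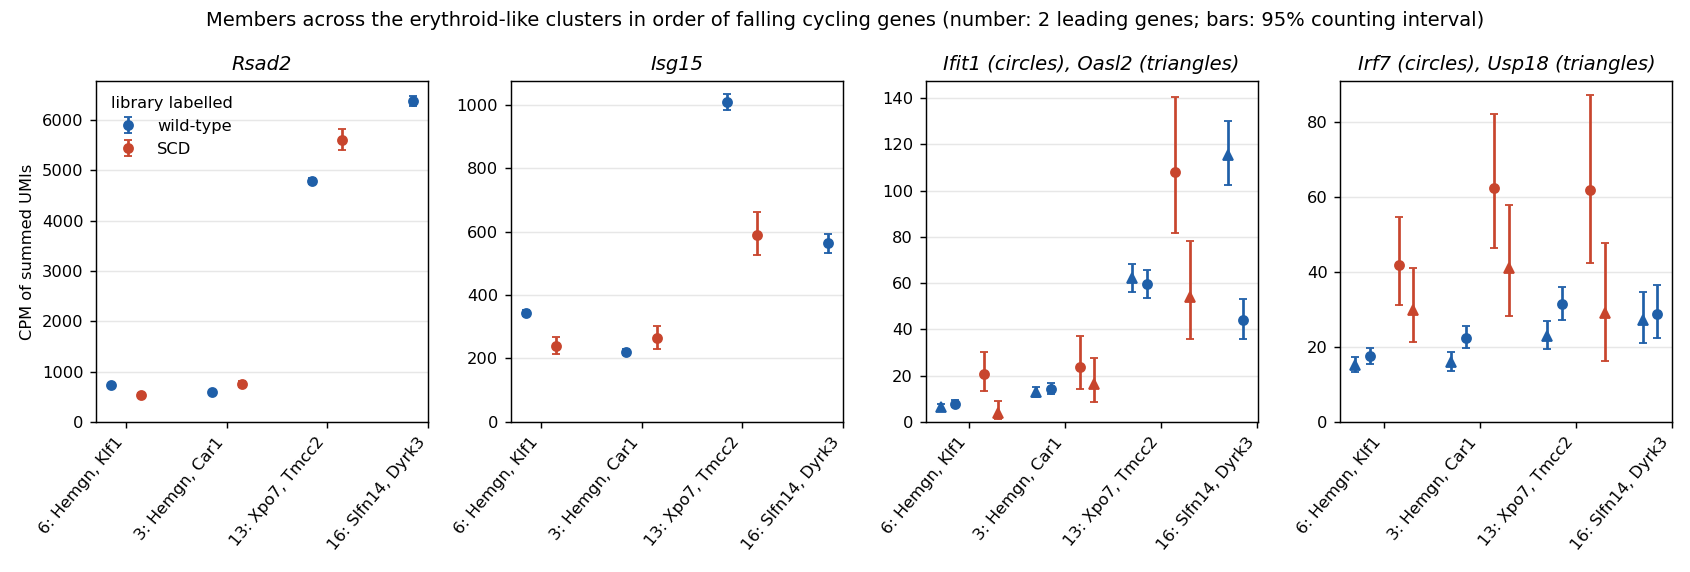
Levels of Rsad2, Isg15, Ifit1 with Oasl2, and Irf7 with Usp18 (CPM, linear axes from 0) in the 4 erythroid-like clusters, from the one richest in cycling genes to the poorest, with 95% Poisson intervals for each library; sums over fewer than 50 cells are not drawn. Rsad2 is at 738 CPM in cluster 6 and 6372 CPM in cluster 16 of the wild-type-labelled library, while Isg15 is highest in cluster 13.

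By cell, with each cell thinned to 1000 UMIs so that depth was equal, a UMI of Rsad2 was found in 60.2% (58.8 to 61.5%) of 5056 erythroid-like cells and 57.9% (53.1 to 62.7%) of 423. The share was 35.8% and 29.9% in cluster 6 and 90.5% (88.7 to 92.0%) and 93.1% (87.7 to 96.6%) in cluster 13. In the main B cluster, taken as the level of free RNA, Rsad2 was found in 8.73% and 1.46% of cells. Whether B cells made some of it themselves was not tested. Median depths before thinning were 4895 and 4801 UMIs in erythroid-like cells and 2251 and 2898 UMIs in the main B cluster, and 151 and 5 erythroid-like cells were too shallow. Without thinning the shares in erythroid-like cells were 82.0% and 74.1%. Isg15 was found in 28.5% and 21.5% of thinned erythroid-like cells and in 3.09% and 0.815% of the main B cluster.

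Most erythroid-like cells with Rsad2 held no UMI of the 6 genes other than Isg15. At 1000 UMIs per cell this was so for 86.1% (84.8 to 87.3%) of 3042 cells and 80.4% (74.9 to 85.2%) of 245. The remaining 13.9% (12.7 to 15.2%) and 19.6% (14.8 to 25.1%) held at least 1 of the 6, against 4.77% (3.88 to 5.79%) and 6.74% (3.53 to 11.5%) of the erythroid-like cells without Rsad2. For Isg15 the shares were 38.0% (36.2 to 39.7%) and 33.1% (27.2 to 39.3%) of the cells with Rsad2 and 14.3% (12.8 to 15.9%) and 5.62% (2.73 to 10.1%) of those without. These shares pool the erythroid-like clusters, between which Rsad2, Isg15, Ifit1 and Oasl2 all differed. The part of cluster membership in them was not tested. At this depth a gene of low level is missed in most cells that hold it, and without thinning 65.5% and 57.4% of the cells with Rsad2 had none of the 6.

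RNA set free from broken cells enters all droplets, so the Rsad2 of other classes was read against erythroid markers. The 12 erythroid markers summed to 515 CPM in the main B cluster of the wild-type-labelled library and 90.5 CPM in that of the SCD-labelled library, and Rsad2 was there at 114 and 19.2 CPM. That is 22.1 (18.6 to 26.1) and 21.2 (17.2 to 26.0) Rsad2 UMIs per 100 erythroid marker UMIs. In the wild-type-labelled library RPM-like cells had 20.8, Ly6c-low monocyte-like cells 19.9, cDC2-like cells 20.4 and mature DC-like cells 25.3, each with an interval that overlaps that of the main B cluster. Ly6c-high monocyte-like cells lay above it there, at 29.7 (27.4 to 32.2).

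In the SCD-labelled library all 5 of these classes lay above the main B cluster. RPM-like cells had 32.6 (28.9 to 36.7) Rsad2 UMIs per 100 erythroid marker UMIs, Ly6c-low monocyte-like cells 38.4 (31.6 to 46.6), cDC2-like cells 30.2 (26.5 to 34.3), mature DC-like cells 32.1 (28.4 to 36.2) and Ly6c-high monocyte-like cells 108 (89.8 to 129). Isg15 was at 6.94 (5.17 to 9.15) and 7.64 (5.42 to 10.5) per 100 in the main B cluster, with 9.54 (8.34 to 10.9) and 82.8 (68.0 to 101) in Ly6c-high monocyte-like cells and 7.05 (5.89 to 8.38) and 33.3 (29.4 to 37.7) in cDC2-like cells. In mature DC-like cells it was at 7.04 and 6.86, within the intervals of the main B cluster. Erythroid-like cells themselves had 10.9 and 7.58 Rsad2 UMIs per 100, and cluster 16 of the wild-type-labelled library 68.6.

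**Figure D3:**
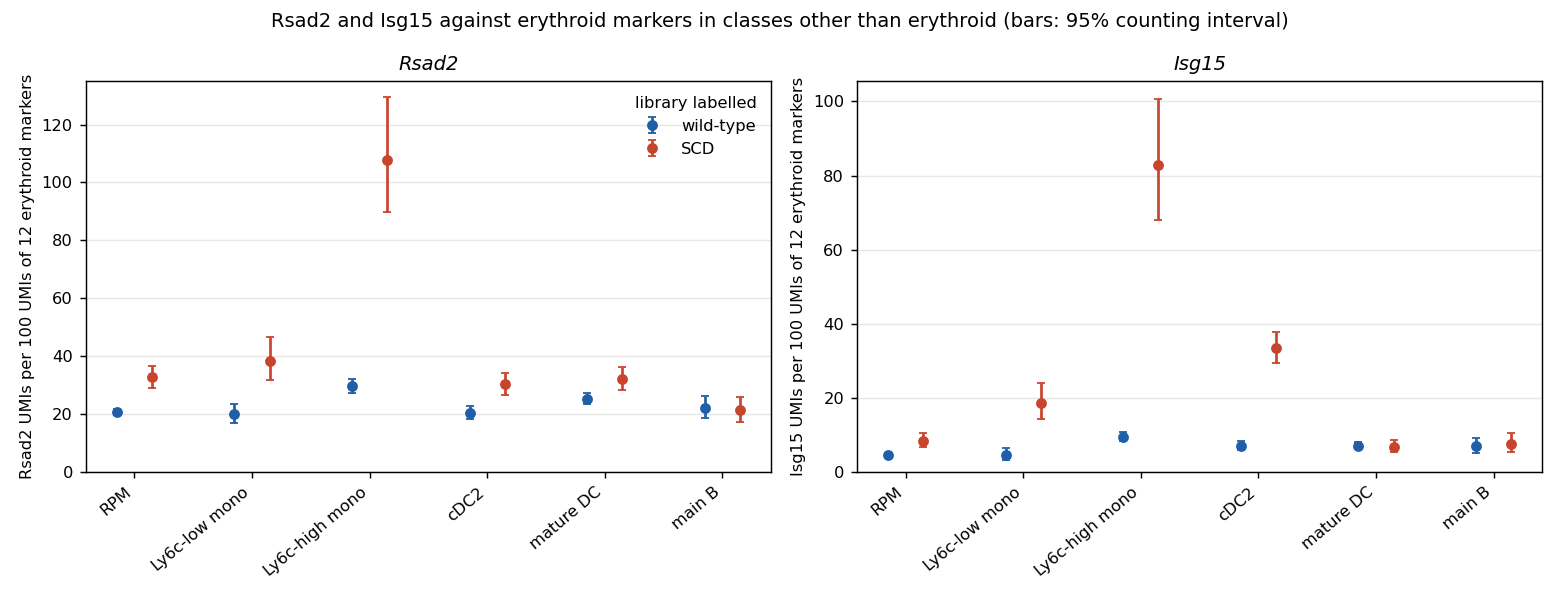
UMIs of Rsad2 and of Isg15 per 100 UMIs of the 12 erythroid markers, by cell class and library, with 95% intervals for counting error. Most classes of the wild-type-labelled library lie near the main B cluster, and Ly6c-high monocyte-like cells of the SCD-labelled library lie highest, at 108 for Rsad2 and 82.8 for Isg15.

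Across the 42 pairs of a cluster and a library with at least 50 cells, the genes whose log2 level was most like that of Rsad2 included many known from late red cell precursors. Among 13015 genes the first was Ube2o, a ubiquitin ligase that clears proteins from reticulocytes (Pearson r 0.98), followed by Epb41, Prxl2a, Gadd45a, Bcl2l1, Tmcc2, Cdr2, Trim10, Bpgm and Sowaha (0.95). Epb41 encodes a protein of the red cell membrane skeleton, Bcl2l1 a survival protein of erythroblasts, and Bpgm the enzyme that makes 2,3-bisphosphoglycerate. Isg15 was 38th, at 0.91. The others ranked lower, with Cmpk2 647th at 0.48, Ifit1 787th at 0.43 and Oasl2 2067th at 0.17. Further down were Ifit3 at 0.05, Irf7 at -0.02, Usp18 at -0.04 and Ifit2, 11934th, at -0.58. The points share their library and its depth, and the clusters of 1 library are not independent.

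The mean of the other 7 members went most with Irf9 (0.73), a transcription factor of interferon signalling, and Xaf1 (0.73), an interferon-induced gene, then with Ank (0.69), B230362B09Rik (0.69) and Riok3 (0.68). Between members, the highest values besides Rsad2 with Isg15 (0.91) were those of Ifit1 with Ifit3 (0.59), Ifit1 with Usp18 (0.58) and Irf7 with Oasl2 (0.58).

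Most other lists of the pathway had no gene that was 2-fold higher in erythroid-like cells than in the clusters without erythroid RNA. Their counts of lower genes are to be read against the 22.0% and 38.6% of all genes that were lower, with medians of -0.45 and -0.72. Of the interferon receptor chains, 5 had enough UMIs, none was higher by 2-fold, and 2 and 3 were lower (medians -0.61 and -1.19). Ifngr1, a chain of the interferon-γ receptor, was at 126 against 382 CPM and 164 against 599 CPM, and Ifnar2, a chain of the type I receptor, at 118 against 159.8 CPM and 98.6 against 140.0 CPM. Of 6 signal transducers none was higher, and 2, Tyk2 and Stat2, were lower in both libraries (medians -0.75 and -0.80), near the values for all genes in the SCD-labelled library. Jak1 had a log2 ratio of -0.03 and -0.44 and Irf9 of 0.39 and 0.10. Of the nucleic acid sensors and their factors none was higher, and 5 of 12 and 7 of 13 were lower, Irf5 among them at -1.26 and -1.60. Of 4 negative regulators none was higher and 3 were lower in each library, Trim30a among them at -1.17 and -1.45.

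The enzymes that attach Isg15 stood apart from these lists, with 2 of 3 higher by 2-fold. Ube2l6, the conjugating enzyme, was at 352 against 36.5 CPM and 592 against 35.6 CPM, log2 ratios of 3.27 (3.20 to 3.35) and 4.05 (3.96 to 4.15), and it is also one of the late erythroid genes summed above. Uba7, the activating enzyme, had 1.81 (1.71 to 1.91) and 1.38 (1.20 to 1.56), and Herc6, the ligase, 0.15 and 0.57. Of 41 further interferon-stimulated genes, 3 were higher in both libraries and 20 and 24 were lower, with a median log2 ratio of -1.0 and -1.55. The 3 were Cmpk2, at 2.09 (1.99 to 2.19) and 2.12 (1.96 to 2.28), Oas3, an oligoadenylate synthetase, at 2.34 and 2.06, and Isg20, an exonuclease, at 4.59 and 4.95; the last 2 were chosen for naming with their values known. The genes of this list with most UMIs were lower, with Ly6e at -1.06 and -1.56, Ifitm3, which blocks viral entry, at -2.30 and -2.15, and Ifi27l2a at -2.01 and -2.39. Of the interferon-γ-induced GTPases none was higher, and 4 of 10 and 5 of 11 were lower.

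**Figure D4:**
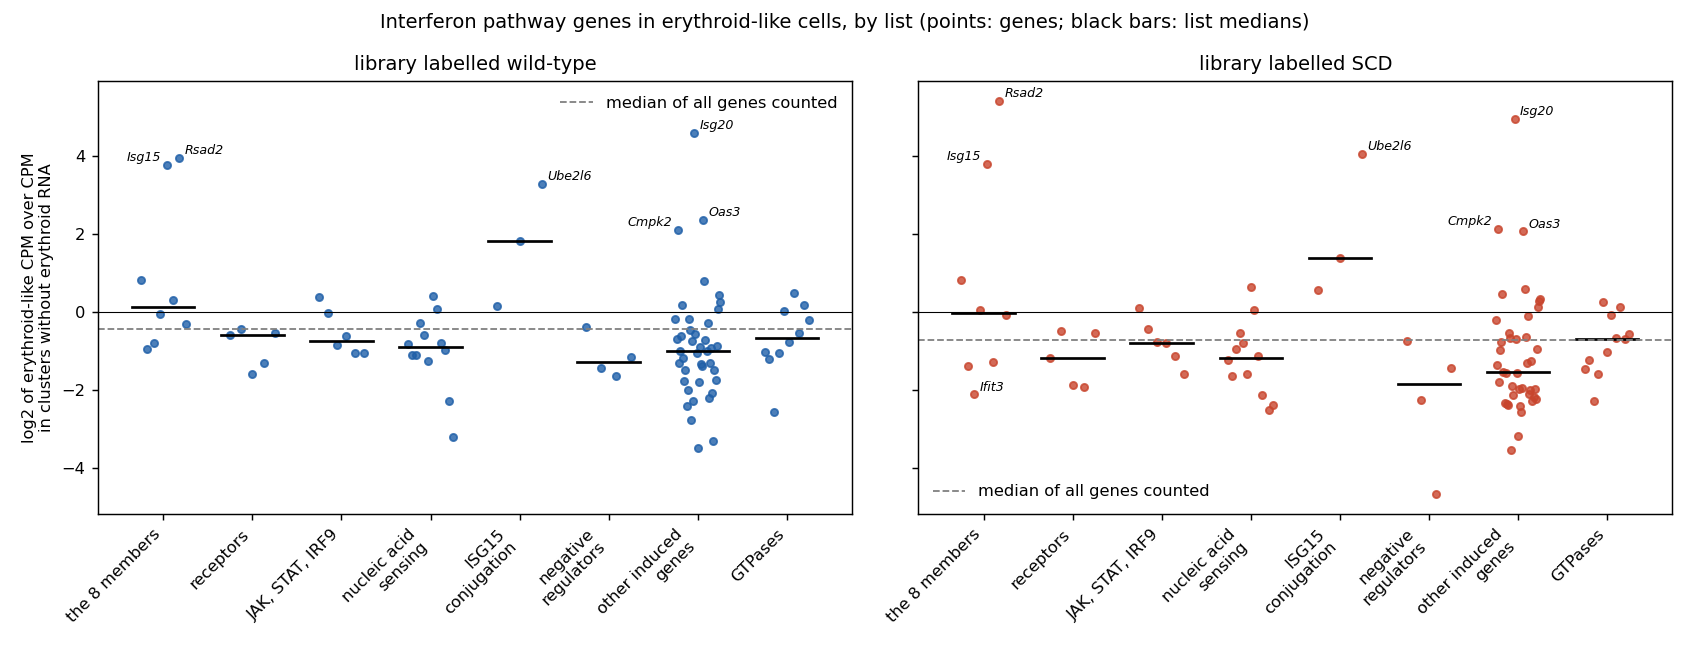
Log2 ratio of erythroid-like cells over the clusters without erythroid RNA for each gene of the interferon pathway lists with at least 100 UMIs, by list and library; points are genes, black bars list medians and the dashed line the median of all genes (-0.45 and -0.72). Rsad2, Isg15, Ube2l6, Cmpk2, Oas3 and Isg20 lie above 2 and most of the other genes below 0.

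Messages of the interferons themselves were nearly absent. Of 21 interferon genes in the files, 16 had no UMI in any kept cell, which allows each up to 0.0280 and 0.0462 CPM (3 UMIs of the total). The other 5 were Ifnab, Ifnb1, Ifnk, Ifnz and Ifng, with at most 2 UMIs each in a library.

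Between the libraries, Rsad2 in erythroid-like cells was nearly level, with log2(SCD/wild-type) at -0.14 (-0.18 to -0.10), and its sign turned to 0.11 at a clustering resolution of 0.5. Isg15 was at -0.48 (-0.58 to -0.38). Irf7 was higher by over 2-fold in the SCD-labelled library, at 22.4 (20.9 to 24.1) against 52.7 (44.3 to 62.3) CPM and 1.23 (0.96 to 1.496). It made 1 of 8 members higher and 0 lower by 2-fold, where 1.93% of 10452 genes were higher and 7.11% lower. Usp18, at 0.96 (0.62 to 1.28), and Ifit1, at 0.87 (0.57 to 1.17), had intervals above 0 and passed 2-fold without globin UMIs, at 1.09 and 1.003, and Usp18 also when centred on the median gene, at 1.05. Oasl2 had one below, at -0.46 (-0.90 to -0.06). Those of Ifit2, at 0.09 (-0.66 to 0.77), and Ifit3, at -0.80 (-1.88 to 0.11), include 0, and the latter was 0.31 with all variable genes in the clustering and -1.12 without doublets.

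In the 6 other classes Rsad2 was lower in the SCD-labelled library throughout. Its log2 ratio was -1.33 (-1.49 to -1.17) in RPM-like cells, -1.54 (-1.86 to -1.22) in Ly6c-low and -1.09 (-1.30 to -0.88) in Ly6c-high monocyte-like cells, -1.88 (-2.09 to -1.66) in cDC2-like cells, -1.55 (-1.74 to -1.37) in mature DC-like cells and -2.57 (-2.92 to -2.22) in the main B cluster. It was less than 2-fold lower in Ly6c-low monocyte-like cells with each library clustered on its own, at -0.31, in Ly6c-high ones from per-cell CPM, at -0.96, and in mature DC-like cells at resolution 2 and with separate clustering, at -0.94 and -0.91. The summed erythroid markers were lower there too, at 368 to 1369 CPM in these 6 classes of the wild-type-labelled library and 47.6 to 368 CPM in those of the SCD-labelled library, and their part in these ratios was not tested. Isg15 was past 2-fold lower in RPM-like cells, at -1.09 (-1.42 to -0.77), and in mature DC-like cells, at -1.93 (-2.33 to -1.55), the latter at -0.83 without doublets and -0.96 with separate clustering. In Ly6c-high monocyte-like cells it was at 0.17 (-0.11 to 0.44), a value that was -0.60 with a minimum of 200 genes per cell.

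The other 6 members were mostly higher in the SCD-labelled library in macrophages, monocytes and cDC2-like cells. Of those with at least 100 UMIs, an interval above 0 was found for 4 of 5 in RPM-like cells, where 47.2% of all genes had one, and for 2 of 2 in Ly6c-low monocyte-like cells, against 25.2%. It was found for 6 of 6 in Ly6c-high monocyte-like cells, against 25.7%, and for 5 of 6 in cDC2-like cells, all but Usp18, against 17.3%. Mature DC-like cells went less far, with 1 of 2 against 23.1%. There Usp18 was at 0.47 (0.23 to 0.71) and Ifit1 at -0.22 (-0.76 to 0.33). Those with fewer UMIs in that class were Irf7 at 0.29 (-0.34 to 0.94), Oasl2 at 0.54 (-0.20 to 1.31), Ifit2 at 0.30 (-0.59 to 1.23) and Ifit3 at -1.05 (-2.02 to -0.11), the last with an interval below 0. Irf7 had a log2 ratio of 1.51 (1.24 to 1.78) in RPM-like cells, at 12.0 and 34.4 CPM, 0.98 (0.59 to 1.40) in Ly6c-low and 1.42 (1.24 to 1.61) in Ly6c-high monocyte-like cells, and 0.76 (0.38 to 1.16) in cDC2-like cells. Oasl2 had 1.75 (1.08 to 2.50), 0.98 (0.82 to 1.14) and 1.62 (1.17 to 2.09) in the last 3 of these. With a minimum of 200 genes per cell the first of these was 0.78. RPM-like cells had 4.35 and 12.9 CPM of Usp18, a log2 ratio of 1.56 (1.11 to 2.02).

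The Ifit genes were at lower levels. In cDC2-like cells Ifit1 had a log2 ratio of 0.75 (0.41 to 1.09), Ifit2 of 0.54 (0.20 to 0.90) and Ifit3 of 1.22 (0.72 to 1.76), the last at 8.33 and 19.4 CPM. In Ly6c-high monocyte-like cells they had 0.68 (0.37 to 0.99), 0.59 (0.24 to 0.94) and 0.88 (0.49 to 1.27). In RPM-like cells Ifit1 had 0.69 (0.27 to 1.11), Ifit3 0.58 (0.28 to 0.88) and Ifit2 -0.02 (-0.41 to 0.36), the only 1 of the 6 members with a value below 0 in the 4 classes that do not include mature DC-like cells.

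Read against all genes, the counts past 2-fold were as follows. In RPM-like cells 2 of 7 members with at least 100 UMIs were higher (Irf7 and Usp18) and 2 lower (Isg15 and Rsad2), where 9.11% of 9978 genes were higher and 4.26% lower and the median gene stood at 0.20. In Ly6c-low monocyte-like cells 1 of 4 was higher (Oasl2) and 1 lower (Rsad2), against 2.59% and 2.47% of 7253 genes. In Ly6c-high monocyte-like cells 1 of 8 was higher (Irf7) and 1 lower (Rsad2), against 2.62% and 5.11% of 8478 genes. In cDC2-like cells 2 of 8 were higher (Ifit3 and Oasl2) and 1 lower (Rsad2), against 0.955% and 1.96% of 9637 genes. The cDC2-like count changed with the processing. Ifit3 was at 0.92 with a minimum of 200 genes and 0.86 at resolution 0.5, Ifit1 was past 2-fold higher under 3 alternatives, at 1.07 to 1.31, and so were Ifit2, at 1.66, and Usp18, at 1.29, with separate clustering. Isg15 there was at -1.44 at resolution 2. In mature DC-like cells 0 of 4 was higher and 2 were lower (Isg15 and Rsad2), against 2.03% and 5.89% of 6503 genes, and in the main B cluster 0 of 2 was higher and 1 lower (Rsad2), against 1.14% and 1.45% of 7871 genes. Members below 100 UMIs in a class are in none of these counts.

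**Figure D5:**
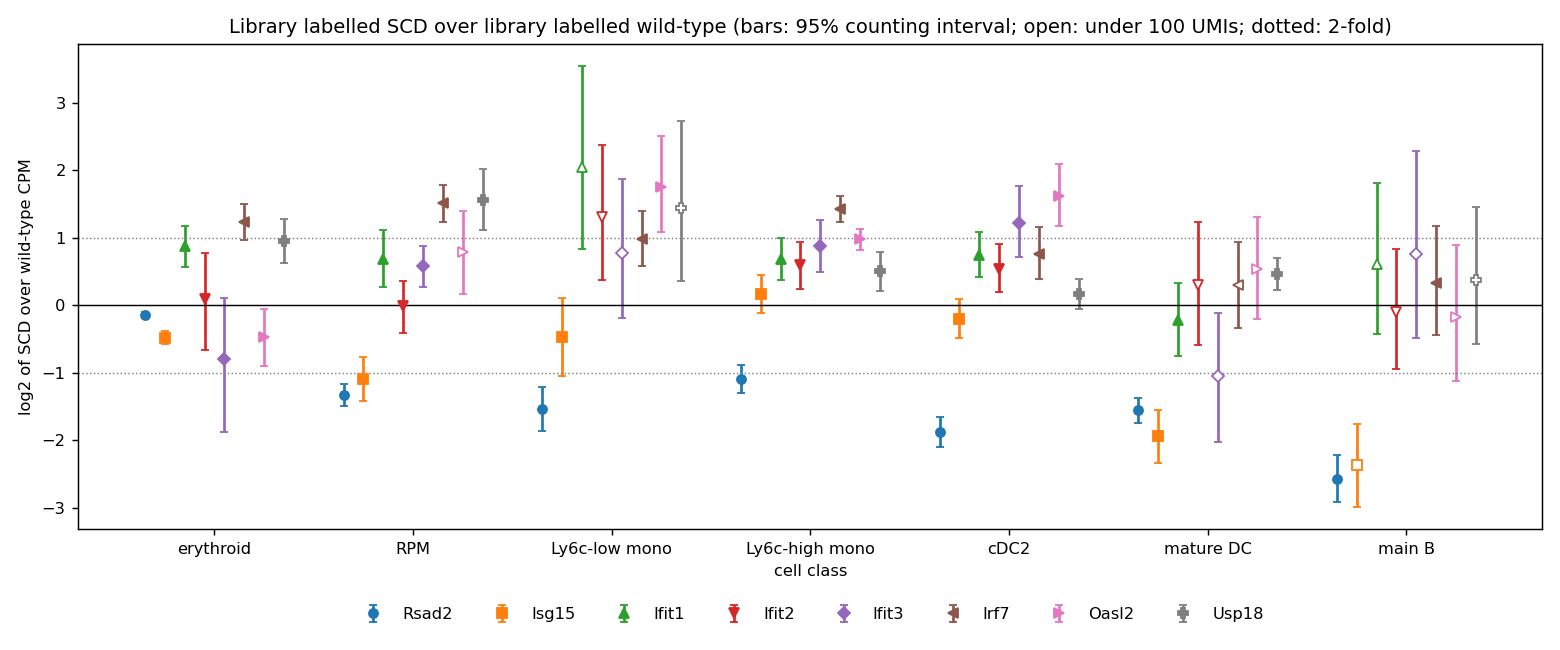
Log2 ratio of the SCD-labelled library over the wild-type-labelled library for each of the 8 genes in 7 cell classes, with 95% counting intervals; open symbols are ratios with under 100 UMIs and dotted lines mark 2-fold. Rsad2 lies below 0 in all 7 classes (in erythroid-like cells at -0.14, which was 0.11 at a clustering resolution of 0.5), while Irf7 lies above 0 in all 7, from 0.29 in mature DC-like cells to 1.51 in RPM-like cells. The Irf7 intervals include 0 in mature DC-like cells (-0.34 to 0.94) and in the main B cluster, at 0.33 (-0.43 to 1.18).

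Among the other interferon lists, most interferon-γ-induced GTPases were higher in macrophages and monocytes of the SCD-labelled library, and most of the further interferon-stimulated genes did not pass 2-fold. The all-gene shares past 2-fold in each class, given above, are the background of these counts. Of the interferon-γ-induced GTPases, which act on vacuoles of intracellular microbes, 9 of 10 were higher by 2-fold in the SCD-labelled library in RPM-like cells, 8 of 9 in Ly6c-low and 7 of 9 in Ly6c-high monocyte-like cells, 4 of 10 in cDC2-like cells, 1 of 9 in erythroid-like cells, 1 of 9 in mature DC-like cells and 0 of 9 in the main B cluster. Irgm2 had a log2 ratio of 1.40, 1.10 and 1.13 in the first 3 of these, and Irgm1 of 1.11, 1.35 and 1.08. Of the further interferon-stimulated genes, 7 of 35 were higher in RPM-like cells, 10 of 31 in Ly6c-low and 8 of 40 in Ly6c-high monocyte-like cells, 2 of 37 in cDC2-like cells and 0 of 29 in mature DC-like cells, while 1, 1, 0, 0 and 4 of them were lower. All genes were higher in 9.11%, 2.59%, 2.62%, 0.955% and 2.03%. In the first 4 of these classes Ifitm3 was at 1.38, 1.03, 0.72 and 0.51. Cmpk2, the neighbour of Rsad2, was at 1.64 (1.14 to 2.18) in Ly6c-low and 0.85 (0.65 to 1.04) in Ly6c-high monocyte-like cells, where the CPM ratio of Rsad2 was below 0. Per 100 erythroid marker UMIs Rsad2 was instead higher in the SCD-labelled library there. It was at 19.9 and 38.4 in Ly6c-low and 29.7 and 108 in Ly6c-high monocyte-like cells.

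In 3 of the pairs of a class and a library given here, cells with Ifit1 held Ifit2 or Ifit3 more often than cells without it, with no overlap of the intervals. Of the 56 cDC2-like cells of the SCD-labelled library with an Ifit1 UMI at 1000 UMIs per cell, 26.8% (15.8 to 40.3%) also had Ifit2 or Ifit3, against 3.37% (2.68 to 4.18%) of the 2372 without. In Ly6c-high monocyte-like cells of the wild-type-labelled library it was 25% (8.66 to 49.1%) of 20 against 1.57% (0.902 to 2.54%) of 1017. In the other library of each class the intervals of cells with and without Ifit1 overlapped, at 8.33% (1.03 to 27.0%) of 24 against 2.42% (1.58 to 3.56%) in cDC2-like cells and 15% (3.21 to 37.9%) of 20 against 4.14% (2.85 to 5.79%) in Ly6c-high monocyte-like cells. RPM-like cells had 18.5% (6.30 to 38.1%) of 27 against 2.46% (2.00 to 2.98%) and 6.25% (0.158 to 30.2%) of 16 against 2.65% (1.89 to 3.61%), and in Ly6c-low monocyte-like cells none of the 1 and 10 cells with Ifit1 had Ifit2 or Ifit3. In erythroid-like cells of the wild-type-labelled library 2.54% (0.527 to 7.25%) of 118 cells with Ifit1 had Ifit2 or Ifit3, against 1.26% (0.964 to 1.61%) of 4938 without, with overlapping intervals. Of all Ly6c-high monocyte-like cells so thinned, 84.9% and 72.6% held none of the 6 members and 0.675% and 2.14% held 3 or more, against 0.119% and 0.236% of erythroid-like cells for 3 or more.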

How the data were processed

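The 2 single-cell libraries of F4/80-enriched spleen cells, 1 per condition, were analysed. The authors aligned the reads to GRCm38.p6, assigned barcodes and removed empty droplets with Cell Ranger (4.0.0 in the submitters' processing notes, an earlier release in the matrix headers), and deposited raw UMI counts without normalization. The members and gene lists were chosen with earlier results of these data known.

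Cells were kept if they had 500 to 5000 genes and if mitochondrial UMIs stayed below 15% and those of ribosomal proteins below 30%. scran 1.30.0 gave size factors. The 2000 most variable genes, leaving out the interferon pathway, heme and iron genes, globins and sex-linked genes, were reduced to 30 principal components, and 15 neighbours were used for Leiden clustering at resolution 1 (scanpy 1.11.5). Limits that turn markers into class names were set after a first clustering. Scrublet doublets were left in. A gene needed 100 UMIs in a comparison, and called means past 2-fold. With 1 library per condition no test was made. CPM intervals are exact Poisson, ratio intervals conditional exact and share intervals exact binomial, all at 95% and for counting error only. Correlations are of log2(CPM + 1). The ratio calculation was tested on simulated data. Genes were named by membership, by list in order of UMIs, or by likeness to Rsad2, and some genes that this rule names are not reported here. Places are from GENCODE M21, which matched 26013 of 26124 identifiers.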

Additional observations from a re-analysis of the deposited data

Results flagged for a closer look

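Oasl2, which encodes a member of the oligoadenylate synthetase family, had ratios of opposite direction in the libraries. Its log2 ratio of erythroid-like cells over the clusters without erythroid RNA was 0.31 in the wild-type-labelled library and -1.30 in the SCD-labelled library. The intervals do not overlap, but each library is 1 mouse and the difference was not tested. The levels behind it were 26.7 and 19.3 CPM in erythroid-like cells and 21.6 and 47.6 CPM in the clusters without erythroid RNA, so that the latter, taken as a pool, differed more. RPM-like cells, with Oasl2 at 3.22 and 5.57 CPM, were 4745 of the 9768 and 1628 of the 10372 cells of that pool. The part of this mix of classes in the difference was not tested. With each cell counting alike, in place of summed UMIs, the ratios were 1.60 and -0.52, and at a clustering resolution of 0.5 the first was -0.046.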

How the results depend on the processing

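No paired analysis was possible because each condition has 1 library. Over 101 results and 910 alternative values, 727 stayed within their 95% interval, 183 moved and no called ratio changed sign; of 622 log2 ratios 595 kept their sign, and of 220 past 2-fold 208 remained past it, while 22 others came to pass it. Where the construction does not show it, the cause of a change was not tested. The Rsad2 log2 ratio of erythroid-like cells over the clusters without erythroid RNA (3.94 and 5.41) was 3.70 and 5.56 with a minimum of 200 genes per cell, 4.31 and 5.79 without doublets, 3.30 and 4.97 at resolution 0.5, 3.20 and 5.09 at resolution 2, 4.24 and 5.84 with all variable genes in the clustering, 4.03 and 5.18 with each library clustered on its own, 4.58 and 6.19 from per-cell CPM, 7.72 and 6.34 with the main B cluster subtracted, and 5.57 in the SCD-labelled library without globin UMIs. In the same order of settings, Rsad2 in erythroid-like cells (1871 and 1698 CPM) was at 2009 and 1885, 2330.3 and 2062, 1529 (wild-type label alone), 2029 and 1831, 1942 and 1855, 2151 (wild-type label alone) and 3572 and 3045 CPM, and without globin UMIs at 1919 and 1903 CPM. The median of the 6 other members (-0.20 and -0.69) was 0.22 and -0.16 from per-cell CPM and -0.034 in the SCD-labelled library with the main B cluster subtracted.

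The Rsad2 log2 ratio of SCD to wild-type in erythroid-like cells (-0.14) was -0.092 with a minimum of 200 genes, 0.11 at resolution 0.5, -0.066 with all variable genes, -0.36 with separate clustering, -0.012 without globin UMIs, -0.23 from per-cell CPM and -0.050 centred on the median gene. The median of the 6 other members went from 0.78 to 0.38 (200 genes) and 0.43 (without doublets) in Ly6c-high monocyte-like cells, from 1.37 to 0.80 (200 genes) in Ly6c-low ones, and from 0.75 to 1.47 (separate clustering) in cDC2-like cells. The share of erythroid-like cells with Rsad2 (60.2% and 57.9%) was 65.3% and 62.9% without doublets and 82.0% and 74.1% without thinning, and in the wild-type-labelled library 53.0% at resolution 0.5, 62.4% at resolution 2, 62.3% with all variable genes, 64.1% with separate clustering and 64.2% at 2000 UMIs. The share of Rsad2-positive erythroid-like cells with none of the 6 (86.1% and 80.4%) was 78.6% and 69.0% at 2000 UMIs and 65.5% and 57.4% without thinning. Erythroid-like cells without UMIs of macrophage genes, planned as an alternative, were not run, since 27 and 22 such cells were left.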
